A study of Sus scrofa with 21 samples.

Results

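The genes described here are ARFGAP1 and 9 further genes of the COPI pathway in boar testis. COPI is the protein coat that buds vesicles from the Golgi apparatus and carries proteins and membrane back to the endoplasmic reticulum and between Golgi cisternae. A small GTPase of the ARF family, loaded with GTP by an exchange factor such as GBF1, recruits the coat complex called coatomer. ARF GTPase-activating proteins such as ARFGAP1 then trigger GTP hydrolysis, which is part of cargo sorting and lets the coat come off. In spermatids the Golgi apparatus also supplies the vesicles that build the acrosome, the secretory cap of the sperm head.

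The members were the rows of the read count tables whose Ensembl pig gene identifier carries 1 of 10 symbols. Of these 10 genes, 9 were matched among 25880 gene rows, and all 9 passed the filter on low counts in every comparison. ARF1 was not matched and is not analysed here. No other RefSeq gene overlapped ARFGAP1, ARF4, ARF5 or COPE on the Sscrofa11.1 assembly, whereas ARFGAP2, ARFGAP3, GBF1, COPA and COPB2 each overlapped 1 other RefSeq gene.

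The testes of 13 Landrace and 8 Duroc boars gave 1 RNA library each. The boars were purebred animals in use for artificial insemination, and tissue was taken at slaughter. Landrace boars were grouped by the share of hyperactive sperm, those with the vigorous asymmetric tail beat needed for fertilisation, on the day of ejaculation (day 0; 4 high boars L5 to L8 and 4 low boars L1 to L4). A second Landrace grouping used how far hyperactivity changed from day 0 over 96 h of liquid storage (3 high boars L7, L13 and L15, and 4 low boars L2, L9, L10 and L12). Boars L2 and L7 belong to both groupings, so the 2 Landrace comparisons are not independent. The Duroc boars carry the labels High (D1 to D5) or Low (D6, D7 and D9) on day 0. For 7 of the 8 Duroc boars the boar list of the study gives, for the same boar name, the opposite group, with D5 the exception. The Duroc groups are therefore called labelled High and labelled Low, and no direction of hyperactivity is drawn from them.

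The libraries held 41358671 to 125576407 reads counted in genes and 18061 to 18957 detected genes. Levels are given as CPM, read counts per 1000000 reads of a library, with library sizes scaled over all 21 libraries by trimmed means of M values (TMM). Fold changes are log2 values from edgeR's quasi-likelihood test, and adjusted p denotes its Benjamini-Hochberg value over all genes tested, with a threshold of 0.05. The TMM factors did not overlap between the Landrace day 0 groups, at 0.822 to 0.986 in the high and 1.03 to 1.18 in the low boars, and neither did the share of reads with several alignments, at 5.83% to 7.20% and 7.53% to 7.92%. Their part in the day 0 results was not tested. Germ cell transcripts were present in every library, with a summed level of the 10 matched elongating spermatid markers of 7254 to 17670 CPM. In whole tissue, fewer cells of a type and less RNA per cell cannot be told apart.

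ARFGAP1 (ENSSSCG00000032235, chromosome 17, 62380060 to 62391836) varied more between boars than any other member. Its level ran from 2.84 CPM in L13 to 17.6 CPM in L3, which is 6.18-fold, and rested on 231 to 1579 reads per library. Its standard deviation of 0.867 on the log2 CPM scale over 21 libraries was larger than that of 96.2% of 12835 genes, against a median of 0.343 over those genes. The other 8 members spanned 1.54-fold (COPB2) to 2.92-fold (COPE), and COPE, with an SD of 0.453, was the only one of them above the median gene.

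In low day 0 boars ARFGAP1 stood at 12 CPM in L1, 12.6 in L2, 17.6 in L3 and 15 in L4. In high day 0 boars it stood at 7.18 CPM in L5, 3.51 in L6, 4.30 in L7 and 2.90 in L8. Every high boar lay below every low boar. The group means were 4.47 ± 1.89 CPM (SD, n = 4) in high and 14.3 ± 2.54 CPM (SD, n = 4) in low boars. The log2 fold change was -1.75 (SE 0.29, 95% confidence interval -2.37 to -1.12, adjusted p = 0.0208), and ARFGAP1 ranked 11 of 12979 genes by p. The call rested in part on single boars. Without L3 the log2 fold change was -1.66 (adjusted p = 0.0504) and without L6 it was -1.65 (adjusted p = 0.0532), and in either case 1 gene of all those tested passed the threshold.

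The background of this comparison was high, since 2682 of 12979 genes passed, 626 of them higher and 2056 lower in the high boars, so that 20.7% of all genes tested were called. The split was 1458 higher and 2464 lower with DESeq2, 234 and 2294 with upper quartile scaling, and 104 and 2458 with library totals alone, which moved the median log2 fold change of all genes from 0.03 to -0.12 and that of ARFGAP1 to -1.91. Among the members, 2 of 9 passed, ARFGAP1 and COPE, both lower in the high boars, against 15.8% of all genes called lower. The median log2 fold change of the 9 members was -0.20 beside the 0.03 of all genes tested. The groups did not overlap for 3 of 9 members (ARFGAP1, ARF4 and COPE), against 31.4% of all genes. The members' counts were thus close to those of all genes.

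**Figure D1:**
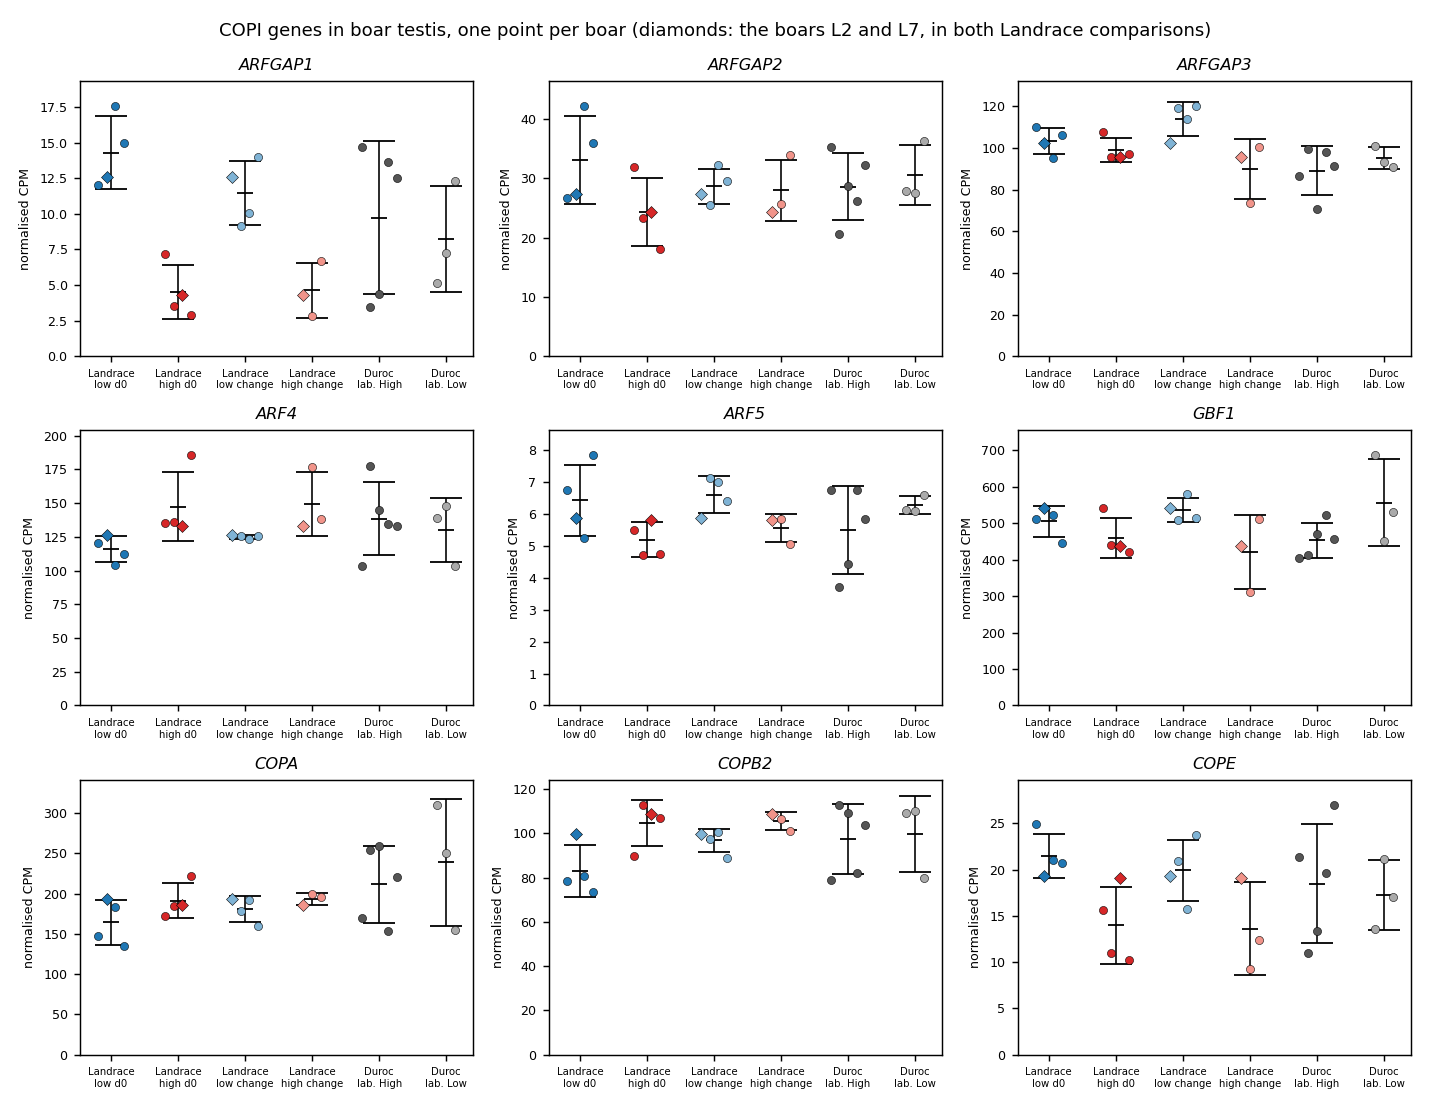
Normalised level (CPM, linear axis from 0) of the 9 matched COPI genes in each boar, by group; points are boars, diamonds are the boars L2 and L7 that appear in both Landrace groupings, and the bars are the mean and SD of the group. ARFGAP1 lies at 2.84 to 7.18 CPM in all Landrace boars labelled high and at 9.15 to 17.6 CPM in all those labelled low, while both Duroc groups span low and high values.

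ARFGAP2 and ARFGAP3, the other GTPase-activating proteins that work with the coat, differed less. ARFGAP2 stood at 23.3, 24.4, 18.0 and 31.9 CPM in the high day 0 boars L6, L7, L8 and L5, and at 26.7, 27.3, 42.2 and 36.0 CPM in the low boars L1 to L4. These ranges overlapped, and the log2 fold change of -0.51 (SE 0.22, adjusted p = 0.0973) did not pass; without L5 it was -0.65 (adjusted p = 0.0438). ARFGAP3 lay at 95.5 to 108 CPM in the high and 95.3 to 110 CPM in the low boars, with a log2 fold change of -0.14 (SE 0.11, adjusted p = 0.366). The ratio of ARFGAP1 to ARFGAP2 reads within a library depends on no scaling factor. ARFGAP1 made up 13.1% to 18.4% of the reads of this pair in the 4 high boars and 29.4% to 31.6% in the 4 low boars. The ratio was chosen after the levels were seen and was not tested, and only its difference between boars is read, since its size also depends on gene length.

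ARF4 and ARF5 are GTPases of the ARF class that acts between the endoplasmic reticulum and the Golgi. ARF4 stood at 135, 136, 133 and 185 CPM in the high day 0 boars L5 to L8, and at 121, 126, 104 and 113 CPM in the low boars L1 to L4. All 4 low boars lay below all 4 high boars, yet the log2 fold change of 0.27 (SE 0.13, adjusted p = 0.138) did not pass the threshold. ARF5 was at 4.72 to 5.80 CPM in the high and 5.26 to 7.84 CPM in the low boars, with a log2 fold change of -0.37 (SE 0.21, adjusted p = 0.183). GBF1, the exchange factor that loads ARF proteins at the early Golgi, was at 421 to 541 CPM in the high and 445 to 542 CPM in the low boars, with a log2 fold change of -0.20 (SE 0.13, adjusted p = 0.241).

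COPE encodes epsilon-COP, a subunit of the outer layer of the coat together with alpha-COP (COPA) and beta prime-COP (COPB2). COPE stood at 15.7, 11, 19.1 and 10.2 CPM in the high day 0 boars L5 to L8 and at 24.9, 19.3, 21.03 and 20.7 CPM in the low boars L1 to L4. The groups did not overlap, but L7 (19.1 CPM) and L2 (19.3 CPM) lay next to each other. Its log2 fold change was -0.68 (SE 0.22, adjusted p = 0.0472). The adjusted p exceeded 0.05 when any of L1, L3, L4, L6 or L8 was left out, up to 0.102 without L1, and was 0.0577 with a filter of 1 count in 1 library. COPA was at 172 to 222 CPM in the high and 135 to 193 CPM in the low boars, with a log2 fold change of 0.14 (SE 0.14, adjusted p = 0.458) that became -0.024 with library totals alone. COPB2 was at 89.6 to 113 CPM in the high and 73.3 to 99.9 CPM in the low boars, with a log2 fold change of 0.26 (SE 0.14, adjusted p = 0.159). Within the outer layer, COPE was thus the only subunit that passed the threshold.

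The remaining coatomer genes were read from a list of 6, all of them tested. ARCN1 (delta-COP) and COPG2 (gamma-2-COP) were higher in the high day 0 boars, against 4.82% of all genes called higher, and none of the 6 was called lower. ARCN1 measured 219 ± 31.5 CPM (SD, n = 4) in high and 153 ± 20.4 CPM (SD, n = 4) in low boars, a log2 fold change of 0.45 (SE 0.14, adjusted p = 0.0402). COPG2 measured 127 ± 12.04 CPM (SD, n = 4) and 87.1 ± 13.1 CPM (SD, n = 4), a log2 fold change of 0.47 (SE 0.14, adjusted p = 0.0351). Both calls were lost with upper quartile scaling (adjusted p = 0.0534 and 0.0512), with library totals alone (0.0842 and 0.102) and without any of L1, L3, L4, L6 or L8, and also without L2 for ARCN1 and without L7 for COPG2. Log2 fold changes were 0.48 for COPB1 (beta-COP, adjusted p = 0.0674), 0.30 for COPZ1 (adjusted p = 0.101) and 0.03 for COPZ2 (adjusted p = 0.961), and that of COPZ2 turned negative with upper quartile scaling and with library totals alone.

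COPG1 and COPG2 encode alternative forms of the gamma subunit and had log2 fold changes of opposite sign. COPG1 stood at 104.6, 72.4, 93.8 and 53.0 CPM in the high day 0 boars L5 to L8 and at 105.3, 122, 127 and 107 CPM in the low boars L1 to L4. The lowest low boar, L1, lay just above the highest high boar, L5. The log2 fold change of COPG1 was -0.58 (SE 0.20, adjusted p = 0.058), and it passed with DESeq2 (adjusted p = 0.0341), with upper quartile scaling (0.0456) and with library totals alone (0.0414). COPG1 made up 27.5% to 48.6% of the COPG1 and COPG2 reads in the 4 high boars and 53.7% to 62.2% in the 4 low boars, so the 2 groups did not overlap in this ratio either. The ratio was chosen after the levels were seen, and no test was made of it. COPG2 overlapped 2 other RefSeq genes, one of them MEST, and counting was by strand.

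**Figure D2:**
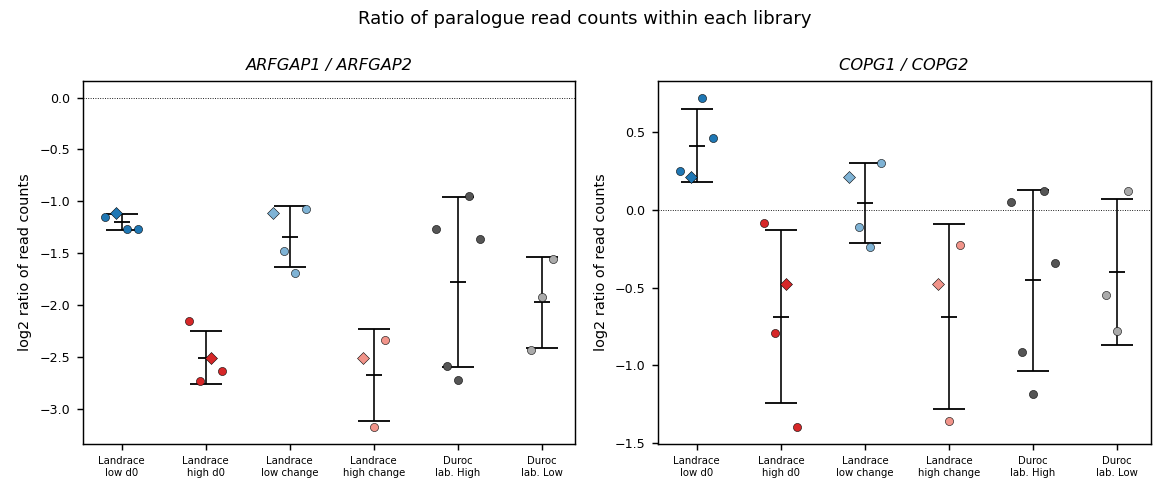
Ratio of read counts within each library (log2, no scaling factor) of ARFGAP1 to ARFGAP2 and of COPG1 to COPG2, by group; points are boars, diamonds are L2 and L7, and bars are the group mean and SD. In the day 0 grouping, the 4 high boars lie below the 4 low boars in both ratios, at a mean log2 ratio of -2.51 against -1.20 for the ARFGAP pair and of -0.69 against 0.41 for the COPG pair.

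Among further ARF-like GTPases, ARL1, which recruits golgin tethers to the trans-Golgi, was higher in the high day 0 boars, whose mean was 242 ± 26.5 CPM (SD, n = 4) where that of the low boars was 176 ± 10.5 CPM (SD, n = 4), a log2 fold change of 0.39 (SE 0.11, adjusted p = 0.0375). The call was lost with upper quartile scaling (adjusted p = 0.0569), with library totals alone (0.107) and without any of L1, L2, L3, L4, L6 or L8. ARFRP1, a GTPase that acts ahead of ARL1, lay at 1.28 to 2.85 CPM in the high and 3.31 to 3.53 CPM in the low boars, with a log2 fold change of -0.81 (SE 0.31, adjusted p = 0.0736). ARFRP1 overlapped 3 other RefSeq genes. For ARF6 the log2 fold change was 0.36 (adjusted p = 0.204), and ARF3 was not matched.

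COPI cargo receptors are membrane proteins that select what the vesicle returns. Of 13 tested, 2 were lower in the high day 0 boars, close to the 15.8% of all genes called lower, and none was called higher. RER1, which retrieves membrane proteins to the endoplasmic reticulum, stood at 4.88, 3.81, 5.53 and 2.21 CPM in the high boars L5 to L8 and at 9.30, 7.59, 10.3 and 10.2 CPM in the low boars L1 to L4. The groups did not overlap, and the log2 fold change was -1.25 (SE 0.28, adjusted p = 0.0209, above 0.05 without L3 or without L6 and 0.0545 at most). In each of those fits 1 gene of all those tested passed. KDELR1, which retrieves soluble resident proteins, measured 53.2 ± 7.56 CPM (SD, n = 4) in high and 70.8 ± 7.47 CPM (SD, n = 4) in low boars, a log2 fold change of -0.48 (SE 0.15, adjusted p = 0.0404, above 0.05 without any of L1, L3, L4, L6 or L8 and 0.0911 at most). The other 11 did not pass. Of these, the 2 nearest the threshold were TMED10 (log2 fold change 0.53, adjusted p = 0.0532), a p24 family protein that binds coatomer, and SURF4 (-0.41, adjusted p = 0.0544). Log2 fold changes of TMED5 (0.50, adjusted p = 0.0807), TMED7 (0.30, 0.149) and KDELR3 (0.18, 0.737) were above 0. Those of TMED1 (-1.07, adjusted p = 0.103), TMED3 (-0.60, 0.139), TMED4 (-0.33, 0.115), TMED9 (-0.31, 0.296), KDELR2 (-0.26, 0.159) and TMED8 (-0.08, 0.753) were below 0. TMED2 was not matched.

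**Figure D3:**
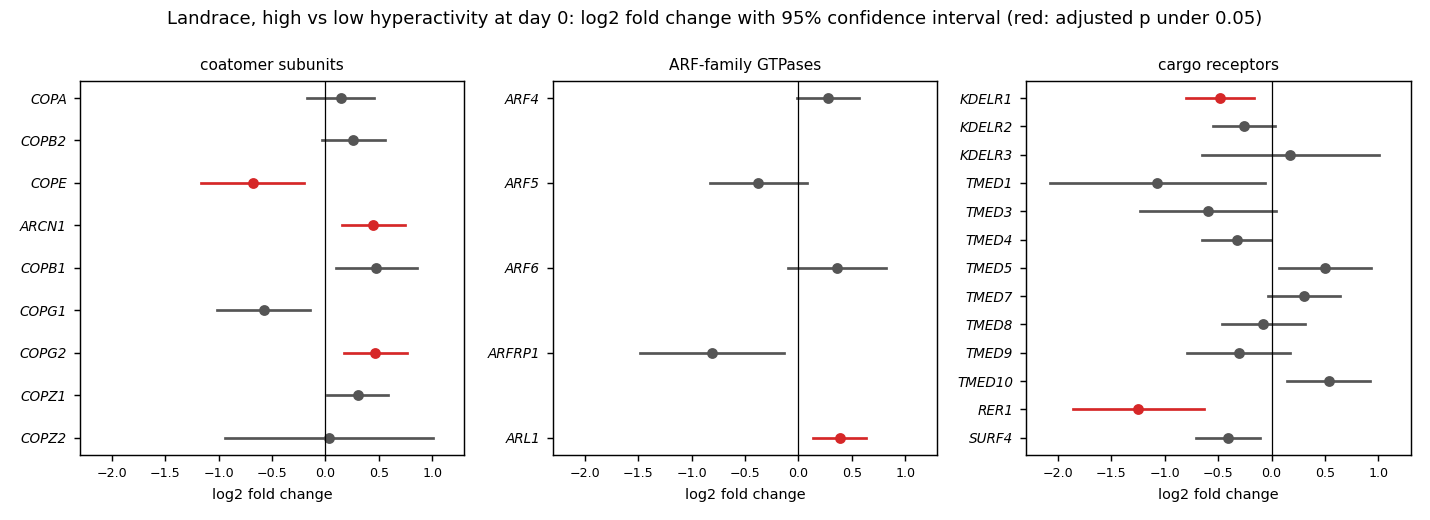
Log2 fold change between Landrace boars of high and low hyperactivity at day 0 for coatomer subunits, ARF-family GTPases and COPI cargo receptors; points are estimates, lines are 95% confidence intervals, and red marks an adjusted p under 0.05. COPE, RER1 and KDELR1 lie below 0 and ARCN1, COPG2 and ARL1 above 0 among the red points.

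Other lists of the pathway were read in the same comparison, in which 4.82% of all genes were called higher and 15.8% lower. Of 30 tested tethers, golgins and SNAREs, 6 were higher and 2 lower. The 6, with log2 fold changes of 0.47 (TRIP11, adjusted p = 0.0462) to 0.74 (COG5, adjusted p = 0.0324), also included the vesicle tether USO1, the golgin GOLGA4, the SNARE SEC22B and RINT1, and the count was 4 with upper quartile scaling and 1 with library totals alone. USE1, a SNARE of the endoplasmic reticulum, was among the lower ones (log2 fold change -1.13, SE 0.27, adjusted p = 0.0228). Of 17 other ARF GTPase-activating proteins, 1 was higher and 4 were lower, the smallest p belonging to GIT1 (-1.18, SE 0.26, adjusted p = 0.0209). Of 11 other exchange factors, 3 were lower and none was called higher, led by CYTH2 (-1.05, SE 0.23, adjusted p = 0.0209). Of 15 genes of the COPII coat, which carries cargo the other way, 3 were lower, led by SEC16A (-1.26, SE 0.30, adjusted p = 0.0225). Of 17 genes of acrosome formation, 5 were lower, led by ACR (-1.05, SE 0.18, adjusted p = 0.0208), which encodes the acrosomal protease acrosin. Of the same 17, 9 had log2 fold changes above 0, with a list median of 0.25 against 0.03 for all genes tested. No gene of any of these lists kept an adjusted p under 0.05 in all 8 fits that left out 1 boar. Only 1 gene of all those tested passed without L3, and 1 without L6, so these fits do not set single genes apart.

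Cell type markers moved in the same comparison, to be read against the same 15.8% of all genes called lower and 4.82% called higher. For elongating spermatids 5 of 10 tested markers were lower, led by TSSK6 (log2 fold change -1.41, SE 0.27, adjusted p = 0.0208), although their summed level was 12910 to 17670 CPM in high and 11650 to 16480 CPM in low boars. For peritubular and smooth muscle cells 3 of 6 were lower, led by MYOCD (-2.14, SE 0.34, adjusted p = 0.0208), and the summed level of the 7 matched genes was 22.2 to 68.6 CPM in high and 55.7 to 122 CPM in low boars. One gene passed in each of 4 further lists. SYCE3 of 9 pachytene spermatocyte markers (-0.93, adjusted p = 0.0438) and ACR of 8 round spermatid markers were lower. HBB, the 1 tested red blood cell marker, was lower too (-2.53, adjusted p = 0.0376). ID4 of 6 spermatogonia markers was higher (0.62, adjusted p = 0.0467). Most markers of 3 of these lists lay on the other side of 0. Log2 fold changes were above 0 for 8 of 9 pachytene spermatocyte markers (median 0.30) and 6 of 8 round spermatid markers (median 0.32). They were below 0 for 4 of 6 spermatogonia markers (median -0.11). None of the 10 Sertoli, 8 Leydig, 5 endothelial and 5 macrophage and mast cell markers passed, and the smallest adjusted p in these lists were 0.114 (CLU), 0.0634 (HSD17B3), 0.0969 (CDH5) and 0.112 (MRC1). Every marker call made in the other 6 lists was lost without L3 and without L6, fits in which 1 gene of all those tested passed. With 1 boar left out, SYCE3 and HBB lost theirs in 6 of 8 fits and ID4 in 7 of 8, and the log2 fold change of HBB ran from -3.36 to -1.47. The part of these cell types in the COPI results was not tested.

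Genes within 1 Mb of ARFGAP1 on chromosome 17 were also read. Of 72 RefSeq genes in this window 49 were matched and 25 tested. In the day 0 comparison 17 of the 25 were lower in the high boars and none was called higher, against 15.8% of all genes called lower. Their log2 fold changes ran from -1.96 to 0.22 with a median of -0.82, and 24 of 25 were below 0, against 47.9% of all genes tested. ARFRP1 is one of them, at 257 kb from ARFGAP1. The count of lower calls was 0 without L3 and 0 without L6, fits in which 1 gene of all those tested passed. It was 7 without L1, 10 without L8 and 11 without L2 or without L4. The median log2 fold change stayed between -0.99 and -0.68 in the fits that left out 1 boar or the 2 shared boars.

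**Figure D4:**
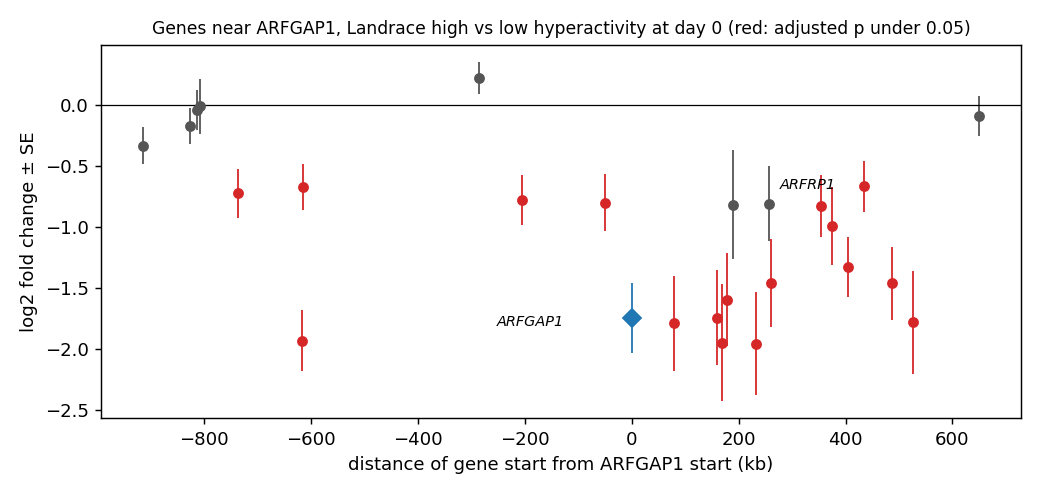
Log2 fold change (± SE) between Landrace boars of high and low hyperactivity at day 0 for the 25 tested genes within 1 Mb of ARFGAP1, against the distance of the gene start from that of ARFGAP1 in kb; the blue diamond is ARFGAP1 and red marks an adjusted p under 0.05. All but 1 of the 25 points lie below 0, and 17 are red.

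The change in hyperactivity over 96 h of storage was compared in 3 high and 4 low Landrace boars. ARFGAP1 stood at 4.30 CPM in L7, 2.84 in L13 and 6.71 in L15 among the high boars, and at 12.6 CPM in L2, 9.15 in L9, 10.02 in L10 and 14.0 in L12 among the low boars. The groups again did not overlap. The log2 fold change was -1.33 (SE 0.31, 95% confidence interval -2.01 to -0.65, adjusted p = 0.240), rank 33 of 12824 genes by p. It did not pass the threshold, and it did pass with the likelihood ratio test (adjusted p = 0.0323) and with DESeq2 (adjusted p = 0.0097). Without the shared boars L2 and L7, 2 high and 3 low boars gave a log2 fold change of -1.24 (adjusted p = 0.304).

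No gene of 12824 passed in this comparison by edgeR's quasi-likelihood test, in which 2540 genes had an unadjusted p under 0.05, while the likelihood ratio test called 64 genes and DESeq2 called 123. Of the members 0 of 9 passed and 2 had an unadjusted p under 0.05, ARFGAP1 and ARFGAP3, against 19.8% of all genes. The groups did not overlap for 5 of 9 members, against 16.4% of all genes. These were ARFGAP1, ARFGAP3 (73.3 to 101 CPM in high, 102 to 120 CPM in low boars, log2 fold change -0.35, SE 0.14, adjusted p = 0.244), ARF4 (133 to 177 against 123 to 126 CPM, 0.24, SE 0.13, adjusted p = 0.304), ARF5 (5.07 to 5.83 against 5.87 to 7.12 CPM, -0.26, SE 0.20, adjusted p = 0.448) and COPB2 (101.2 to 109 against 89.0 to 100.8 CPM, 0.11, SE 0.12, adjusted p = 0.579). COPE had a log2 fold change of -0.56 (SE 0.26, adjusted p = 0.255) and GBF1 of -0.36 (SE 0.17, adjusted p = 0.253). Those of COPA (0.09, adjusted p = 0.684) and ARFGAP2 (-0.05, adjusted p = 0.886) were nearer to 0. Of the 25 genes near ARFGAP1, 23 were tested here and 20 had log2 fold changes below 0, against 49.6% of all genes. All 10 elongating spermatid markers tested had log2 fold changes below 0. Their summed level was 7254 to 14240 CPM in high and 13370 to 17300 CPM in low boars. Log2 fold changes were above 0 for all 8 Leydig cell markers (median 0.59) and all 5 endothelial markers (median 0.59). They were also above 0 for 9 of 10 Sertoli cell markers (median 0.29). The part of these cell types in the values of the members was not tested.

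**Figure D5:**
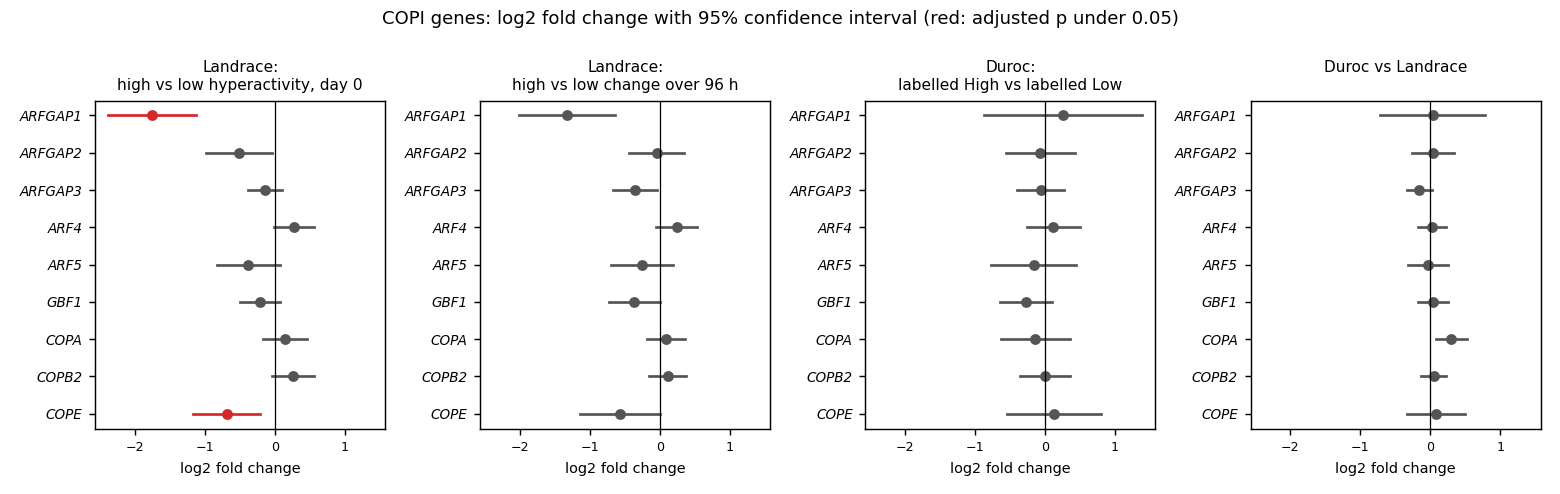
Log2 fold change of the 9 matched COPI genes in the 4 comparisons; points are estimates, lines are 95% confidence intervals, and red marks an adjusted p under 0.05. ARFGAP1 (-1.75) and COPE (-0.68) are red at day 0 in Landrace, and no member is red in the other 3 comparisons.

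When all 13 Landrace boars were set side by side, ARFGAP1 was at 2.84 to 7.18 CPM in the 6 boars labelled high in either trait and at 9.15 to 17.6 CPM in the 7 labelled low. ARF4 showed the opposite order, at 133 to 185 CPM in the 6 and 104 to 126 CPM in the 7. The other 7 members overlapped, whereas ARL1 did not (216 to 273 against 161 to 198 CPM). This grouping was chosen after the values were seen, and 5.99% of 12835 genes did not overlap in it.

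In Duroc, ARFGAP1 lay within the range of the Landrace boars. It stood at 14.7 CPM in D1, 3.43 in D2, 4.35 in D3, 13.6 in D4 and 12.5 in D5, the boars labelled High, and at 5.14 CPM in D6, 7.24 in D7 and 12.3 in D9, labelled Low. The 2 labelled groups overlapped. The log2 fold change was 0.26 (SE 0.51, 95% confidence interval -0.87 to 1.39, adjusted p = 1). The 8 other members had log2 fold changes of -0.27 (GBF1) to 0.13 (COPE), all with an adjusted p of 1 and overlapping groups. No gene of 13043 passed by edgeR's quasi-likelihood test, by the likelihood ratio test or by DESeq2, 158 genes (1.21%) and no member had an unadjusted p under 0.05 in the first of these, and groups did not overlap for 1.3% of genes. ARF4 was highest in D2 (178 CPM) and lowest in D1 (103.3 CPM), with D9 close to D1 at 103.5 CPM. D2 and D1 had the lowest and the highest ARFGAP1 level among the Duroc. They also had the lowest and the highest TMM factor among the Duroc (0.851 and 1.18). The relation of ARF4 to ARFGAP1 was not tested.

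The Landrace day 0 difference, high minus low, was set against the Duroc difference, labelled High minus labelled Low, as an interaction. The grouping of the boar list, in which D5 alone keeps its label, was not fitted. The value of the interaction depends on the direction of the Duroc labels, which is in doubt. For ARFGAP1 it was -1.99 (SE 0.65, 95% confidence interval -3.37 to -0.62, unadjusted p = 0.00716, adjusted p = 0.329 in edgeR's quasi-likelihood test) with the labels as deposited and -1.51 (SE 0.63, adjusted p = 0.245) with the labels of all 8 Duroc boars turned, and it passed the threshold in neither. No gene of 12920 passed, 1946 (15.1%) had an unadjusted p under 0.05, and the likelihood ratio test called 3 genes and DESeq2 6, none of them a member. For COPE the interaction was -0.79 (SE 0.40, adjusted p = 0.331). With the labels as deposited, it lay for the other 7 members between -0.42 (ARFGAP2) and 0.32 (COPA), with adjusted p values from 0.411 to 0.889.

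Between breeds, ARFGAP1 ran from 3.43 to 14.7 CPM with a median of 9.78 CPM in Duroc and from 2.84 to 17.6 CPM with a median of 9.15 CPM in Landrace boars. The means were 9.16 ± 4.59 CPM (SD, n = 8) and 9.06 ± 4.94 CPM (SD, n = 13). The log2 fold change was 0.04 (SE 0.36, 95% confidence interval -0.71 to 0.78, adjusted p = 0.999). Of 12835 genes 355 passed, which is 2.77%, and 0 of 9 members did so by edgeR's quasi-likelihood test, by the likelihood ratio test or by DESeq2. COPA had the smallest p of the members. It ran from 153 to 311 CPM with a median of 236 CPM in Duroc and from 135 to 222 CPM with a median of 185 CPM in Landrace, a log2 fold change of 0.30 (SE 0.11, unadjusted p = 0.00992, adjusted p = 0.166). The 7 remaining members had log2 fold changes of -0.15 (ARFGAP3) to 0.08 (COPE), with adjusted p of 0.534 or more. ASAP2, one of 17 tested other ARF GTPase-activating proteins, was higher in Duroc (0.56, SE 0.15, adjusted p = 0.0345), as were 1.29% of all genes, and none of the other coatomer subunits, ARF GTPases or cargo receptors passed.

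Ordered by group mean, ARFGAP1 was highest in Landrace low day 0 boars (14.3 CPM), followed by Landrace low change (11.4 ± 2.25 CPM, SD, n = 4), Duroc labelled High (9.71 ± 5.38 CPM, SD, n = 5), Duroc labelled Low (8.23 ± 3.70 CPM, SD, n = 3), Landrace high change (4.62 ± 1.95 CPM, SD, n = 3) and Landrace high day 0 boars (4.47 CPM). The ranges of each pair of neighbours in this order overlapped. The low Landrace groups share boar L2 and the high ones share L7, so overlap between them was given by the design.

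The genes whose profile over the 21 libraries was most like that of ARFGAP1 were found by the root mean square difference of mean-centred log2 CPM. The 5 closest of 12834 genes were PCSK4 (0.217), SPATC1 (0.231), ENSSSCG00000021258 (0.233), RAB3IL1 (0.240) and ENSSSCG00000010111 (0.241). PCSK4 encodes a proprotein convertase of germ cells and SPATC1 the sperm centrosomal protein speriolin. No member was near the top of this order. COPE ranked 1307, ARFGAP2 2520, ARF5 2869, GBF1 3682, ARFGAP3 3846, COPB2 7738, ARF4 8770 and COPA 8786. The points share libraries, scaling and depth, so the measure is a description.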

How the data were processed

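RNA sequencing of testis tissue was analysed in 21 libraries, 1 per boar. Reads were stranded and single-ended. Per the methods of the study and the labels, the authors used Trimmomatic 0.36 for trimming, STAR for alignment to the Sscrofa 11.1 assembly and HTSeq in reverse-stranded mode with Ensembl genes. The deposited files hold unnormalized read counts, 1 value per gene and boar. The members and gene lists were chosen with earlier results of these data known.

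The main test was the quasi-likelihood F test of edgeR 4.0.16 (limma 3.58.1, R 4.3.3), adjusted by Benjamini and Hochberg, after TMM scaling. It was run on genes that reached 1 CPM in 50% or more of the libraries of a fit. DESeq2 1.42.0 served as an alternative. Each comparison used only its own boars. The fits were also run on simulated data, and the outcome is not reported here. Pairs of libraries of a group differed by a chi-square per degree of freedom of 45.9 to 288, so none was a duplicate, and nothing was averaged. The labels do not say that replicate numbers pair boars. Groups came from the labels, and the difference for Duroc is given with the samples.

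Named are all members, every tested gene of the other coatomer, ARF GTPase and cargo receptor lists, the gene of smallest p at day 0 in each other list (1 such gene is not reported here), and the closest genes to ARFGAP1. USE1, the 6 higher tethers, golgins and SNAREs, ASAP2 and the paralogue ratios were chosen after their values were seen. Gene symbols named 14857 of 25880 rows, and positions are RefSeq Sscrofa11.1, matched by symbol. Alternatives were the likelihood ratio test of the study, DESeq2, other scalings, filters of 1 count in 1 library and of 5 CPM, a robust fit and leaving out boars. The fit with library totals alone and the turned Duroc labels were chosen after seeing the data. No sequences are printed.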

Additional observations from a re-analysis of the deposited data

Results flagged for a closer look

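Within groups of 4 to 10 boars, the highest or lowest boar was compared with the spread of its group by Dixon's gap test for the 9 members and 23 further coatomer, ARF and cargo receptor genes. In 160 combinations of a gene and a group 10 values stood apart, and chance alone flags about 1 in 20 combinations, which is 8 here. Several groups share boars. Among the members, ARFGAP3 was at 107.5 CPM in L5 of the high day 0 boars, where the others lay at 95.5 to 97.0 CPM. ARF4 was at 185.4 CPM in L8 of the same group, against 133 to 136 CPM in the others, and at 123 CPM in L10 of the low change boars, against 125.6 to 126.0 CPM. GBF1 was at 540.6 CPM in L5 of the high day 0 boars, against 421 to 440 CPM, and at 686.4 CPM in D6 among all 8 Duroc boars, against 405 to 531 CPM. Among the other genes, COPZ2 was at 2.293 CPM and KDELR2 at 129.5 CPM in L2 of the low change boars, TMED8 at 19.4 CPM in L3 of the low day 0 boars, TMED9 at 21.27 CPM in L7 of the high day 0 boars and TMED3 at 5.759 CPM in D5 among the Duroc boars. ARFGAP1 and COPE stood apart in no group tested. No interaction between Landrace day 0 and the Duroc labels had an adjusted p under 0.05 for a member, either with the labels as deposited or with those of all 8 Duroc boars turned, where the smallest was 0.245. The direction of these labels is in doubt. The grouping of the boar list, in which D5 alone keeps its label, was not fitted.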

How the results depend on the processing

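ARFGAP1 kept its direction at Landrace day 0 and over 96 h under every alternative run. With 1 boar left out, its log2 fold changes were -2.06 to -1.58 at day 0 and -1.69 to -1.07 over 96 h. It lost its day 0 call only without L3 or without L6, fits in which 1 gene of all those tested passed. At day 0, the count of genes past the threshold (2682) was 1661 with a filter of 5 CPM and 1 to 3764 with 1 boar left out, and the count of COPI members (2) was 1 with a filter of 1 count in 1 library and 0 to 3 with 1 boar left out. Over 96 h (0 genes, 0 members) it was 64 genes and 1 member with the likelihood ratio test, 123 and 1 with DESeq2, 1 gene with a filter of 1 count in 1 library, and 0 to 2 genes with 1 boar left out. By the Duroc labels it was 0 to 2 genes with 1 boar left out, the 2 without D9. Between breeds (355 genes) it was 537 with DESeq2, 554 with a filter of 1 count in 1 library, 225 with a filter of 5 CPM and 204 with only the Landrace boars that carry a day 0 label. For the interaction (0 genes) it was 3 with the likelihood ratio test, 6 with DESeq2 and 0 to 1 with 1 boar left out. The cause of these shifts was not tested, except that the filters change the number of genes tested and the omissions the number of boars.

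Of the log2 fold changes that turned direction none had been called. At day 0, COPA was -0.024 and COPZ2 -0.10 with library totals alone, and COPZ2 was -0.045 with upper quartile scaling and -0.034 without the shared boars. With 1 boar left out at day 0, COPZ2 ran from -0.25 to 0.35, TMED8 from -0.18 to 0.011 and KDELR3 from -0.14 to 0.44. Over 96 h, ARFGAP2 was 0.019 without the shared boars and -0.21 to 0.046 with 1 boar left out. By the Duroc labels, with 1 boar left out, ARFGAP1 ran from -0.010 to 0.74, ARFGAP2 from -0.21 to 0.13, COPA from -0.34 to 0.065, COPB2 from -0.10 to 0.062 and COPE from -0.046 to 0.28. Between breeds with only day 0 Landrace boars, ARFGAP1 was -0.013 and ARF5 0.019. For the interaction, GBF1 was -0.0086 with upper quartile scaling, -0.052 with a filter of 5 CPM, -0.092 with library totals alone and -0.060 to 0.16 with 1 boar left out, and ARFGAP3 was 0.017 with a filter of 1 count in 1 library. With the Duroc labels turned, GBF1 was -0.50 and COPA -0.036. No paired analysis was possible because the labels number no replicates and each boar gave 1 library. ARF5 (266 to 545 reads per library) and ARFGAP1 (231 to 1579) rested on the fewest reads among the members. The part of read depth in their values was not tested.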
